A study of Homo sapiens with 34 samples.

Results

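The genes described here are the nuclear-encoded genes of oxidative phosphorylation, chosen by name: NDUFA, NDUFB, NDUFC, NDUFS and NDUFV genes, SDHA to SDHD, and genes whose names begin with UQCR, COX4 to COX8 or ATP5. The names fitted 92 of the 20255 genes in the table. Of these, 78 encode structural subunits: 36 of complex I, 4 of complex II, 8 of complex III, 15 of complex IV (NDUFA4 and NDUFA4L2 counted there) and 15 of complex V. The other members were 4 assembly factors (SDHAF1 to SDHAF4), 3 associated factors, 3 antisense RNAs, 2 retrocopies and 2 readthrough transcripts. A filter on low values (at least 10 in at least 3 of the 33 replicated samples) was passed by 91 members and by all 78 structural ones; the retrocopy ATP5L2 did not pass. COX6A2, COX7B2 and COX8C, the tissue-restricted forms of further subunits, were not analysed here, and neither were the subunits encoded in mitochondrial DNA.

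RNA was sequenced from the H1 human embryonic stem cell line while it differentiated towards blood without added haematopoietic cytokines. Day 0 embryoid bodies had not yet attached and had received neither BMP4 nor VEGF. Both factors were given from attachment, and the medium then held VEGF alone, so the day 2 cells had been grown with both factors, the cells of day 4 and later also with VEGF alone, and day 4 differs from day 0 in this treatment as well as in time. At the step to VEGF alone the base medium also changed, from mTeSR1 with Thiazovivin to StemLine II. Attachment was to collagen IV, so day 4 differs from day 0 in medium and surface too. There were 34 samples in 12 populations: 1 of undifferentiated H1 cells, and 3 each of day 0 embryoid bodies, unsorted cells on days 2 and 4, CD43- and CD43+ cells sorted on days 6, 9 and 12, and, on day 16, cells negative for both CD43 and CD45 and cells positive for them, named here day 16 CD43- and day 16 CD43+. All samples derive from 1 line, and the CD43- group is whatever the sort on this leukocyte marker left behind. The values are normalised tag counts with the same set of values in every sample (sum 17856940, median 197), so they behave nearly as ranks, the sequencing depth is unknown, and levels were not compared between genes.

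The sort was checked first. SPN, which encodes CD43, was at 28, 19 and 49 in day 6 CD43- cells and at 8780, 6791 and 5979 in day 6 CD43+ cells. On day 16 it was at 84, 328 and 122 against 2870, 2796 and 2338, and PTPRC, which encodes CD45, at 18, 42 and 22 against 12014, 10084 and 15868. Neither gene's values overlapped between the sorted groups. In undifferentiated H1 cells the 4 pluripotency markers summed to 80014, and all 4 were above 0.

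Oxidative phosphorylation passes electrons from NADH through complex I, or from succinate through complex II, to ubiquinone, on through complex III and cytochrome c to oxygen at complex IV, while complex V uses the resulting proton gradient to make ATP. Complex II is the only one with no subunit from mitochondrial DNA, and it is also an enzyme of the TCA cycle. Several complex IV subunits have a broad form and a form restricted to some tissues: COX4I2 is an oxygen-responsive form of COX4I1, COX6B2 is known from testis, COX7A1 from heart and skeletal muscle, and NDUFA4L2 is a target of hypoxia-inducible factors.

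Promoter stretches are shown because factors of the NRF1 and ETS (GABP) families are known regulators of such genes. RefSeq promoters (GRCh38.p14) were matched for 74 of 92 members, 64 of them structural. Each was read over the 250 bases before the annotated start, on both strands. The letters searched were GCATGCGC for NRF1. For the ETS family they were CCGGAAG. For the factor YY1 they were AAGATGGCG. For the core of the hypoxia response element they were ACGTG, and for the TATA box they were TATAAA; matches of different motifs were counted separately. Among the 62 matched structural members outside COX4I2, COX6B2, COX7A1 and NDUFA4L2, 19.4% held the NRF1 letters and 25.8% the ETS letters, against 2.81% and 8.82% of all 27305 promoters. The 27305 were not filtered by gene type or expression, so they are an unlike set, and the part of this in the gap was not tested. The other shares were 1.61% against 0.641% for YY1, 24.2% against 18.7% for ACGTG and 9.68% against 11.1% for TATAAA. COX6B2 and NDUFA4L2, the matched restricted forms, held none of the 5 in this window. The stretches below were chosen after the matches were known, to show genes with and without them, and a match is a description only. They leave out bases that GENCODE v29 places in an exon, run 5′ to 3′ on the gene's strand, and have the matched letters in capitals. SDHB (chr1:17054171-17054282, minus strand) and COX6A1 (chr12:120437863-120438089, plus strand) show the NRF1 letters, ATP5H (chr17:75046986-75047183, minus strand) the ETS letters and COX5B (chr2:97645812-97646039, plus strand) both; NDUFA4 (chr7:10940257-10940403, minus strand) and NDUFA4L2 (chr12:57240763-57241012, minus strand) are a broad form and its restricted counterpart with none of the 5. In the full window of 250 bases SDHB and COX6A1 hold the ETS letters as well, within the exon bases left out here.
SDHB: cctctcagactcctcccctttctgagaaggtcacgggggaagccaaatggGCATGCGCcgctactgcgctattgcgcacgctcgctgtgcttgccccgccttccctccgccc
COX5B: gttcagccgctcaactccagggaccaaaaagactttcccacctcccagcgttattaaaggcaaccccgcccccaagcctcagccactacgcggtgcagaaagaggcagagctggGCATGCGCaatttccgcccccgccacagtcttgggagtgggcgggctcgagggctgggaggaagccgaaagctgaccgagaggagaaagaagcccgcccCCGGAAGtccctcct
COX6A1: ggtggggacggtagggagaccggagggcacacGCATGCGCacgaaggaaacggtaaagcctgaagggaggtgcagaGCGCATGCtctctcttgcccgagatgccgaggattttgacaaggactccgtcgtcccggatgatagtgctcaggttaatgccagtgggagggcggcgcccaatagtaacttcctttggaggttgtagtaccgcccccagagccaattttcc
ATP5H: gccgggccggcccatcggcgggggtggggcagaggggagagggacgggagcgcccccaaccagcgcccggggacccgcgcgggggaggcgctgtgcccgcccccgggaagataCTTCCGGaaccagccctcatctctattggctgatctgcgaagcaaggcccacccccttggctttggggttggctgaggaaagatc
NDUFA4: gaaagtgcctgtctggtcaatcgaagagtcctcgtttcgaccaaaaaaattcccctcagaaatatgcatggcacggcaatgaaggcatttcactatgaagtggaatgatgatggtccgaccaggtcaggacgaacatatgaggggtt
NDUFA4L2: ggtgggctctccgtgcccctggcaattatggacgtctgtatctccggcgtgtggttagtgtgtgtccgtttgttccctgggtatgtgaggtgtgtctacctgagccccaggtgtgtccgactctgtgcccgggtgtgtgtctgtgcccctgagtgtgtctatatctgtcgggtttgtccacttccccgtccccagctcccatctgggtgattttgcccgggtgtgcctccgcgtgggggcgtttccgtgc

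Over the 12 populations the structural members were highest in day 9 CD43+ cells and lowest in CD43- cells of days 12 and 16. The median over the 78 structural members, on the log2(value + 1) scale, was 10.48 in undifferentiated H1 cells and 10.29 ± 0.11 (SD, n = 3, as for every mean here) on day 0, and was 10.02 ± 0.07 on day 2 and 9.90 ± 0.08 on day 4. In CD43+ cells the sorting days gave 10.43 ± 0.11 (day 6), 10.62 ± 0.05 (day 9), 10.35 ± 0.19 (day 12) and 10.06 ± 0.04 (day 16). In CD43- cells it was 10.03 ± 0.11, 9.62 ± 0.07 and 9.62 ± 0.10 on days 6, 12 and 16, and lay between 9.82 and 10.10 on day 9. On each of these days all 3 CD43+ samples lay above all 3 CD43- samples. Some populations with neighbouring values, such as undifferentiated H1 cells and day 6 CD43+ cells, or the CD43- cells of days 12 and 16, lay within their spread. Others stood apart. Day 0 samples (10.18 to 10.39) lay above those of day 16 CD43+ cells (10.01 to 10.10). Day 4 samples (9.81 to 9.97) lay above those of day 12 CD43- cells (9.55 to 9.69).

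The medians of single complexes are given as a description, with no test between complexes. Complex III was at 11.41 ± 0.02 in day 9 CD43+ cells and at 9.83 ± 0.09 in day 16 CD43- cells, the widest range of the 5. Complex IV was at 10.55 ± 0.08 on day 0 and 9.88 ± 0.01 on day 2, where its 3 samples hardly differed. Complex II had its lowest value in day 6 CD43- cells (9.69 ± 0.06), and its CD43- cells were at 10.26 ± 0.11 on day 16 against 9.79 ± 0.05 on day 12.

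**Figure D1:**
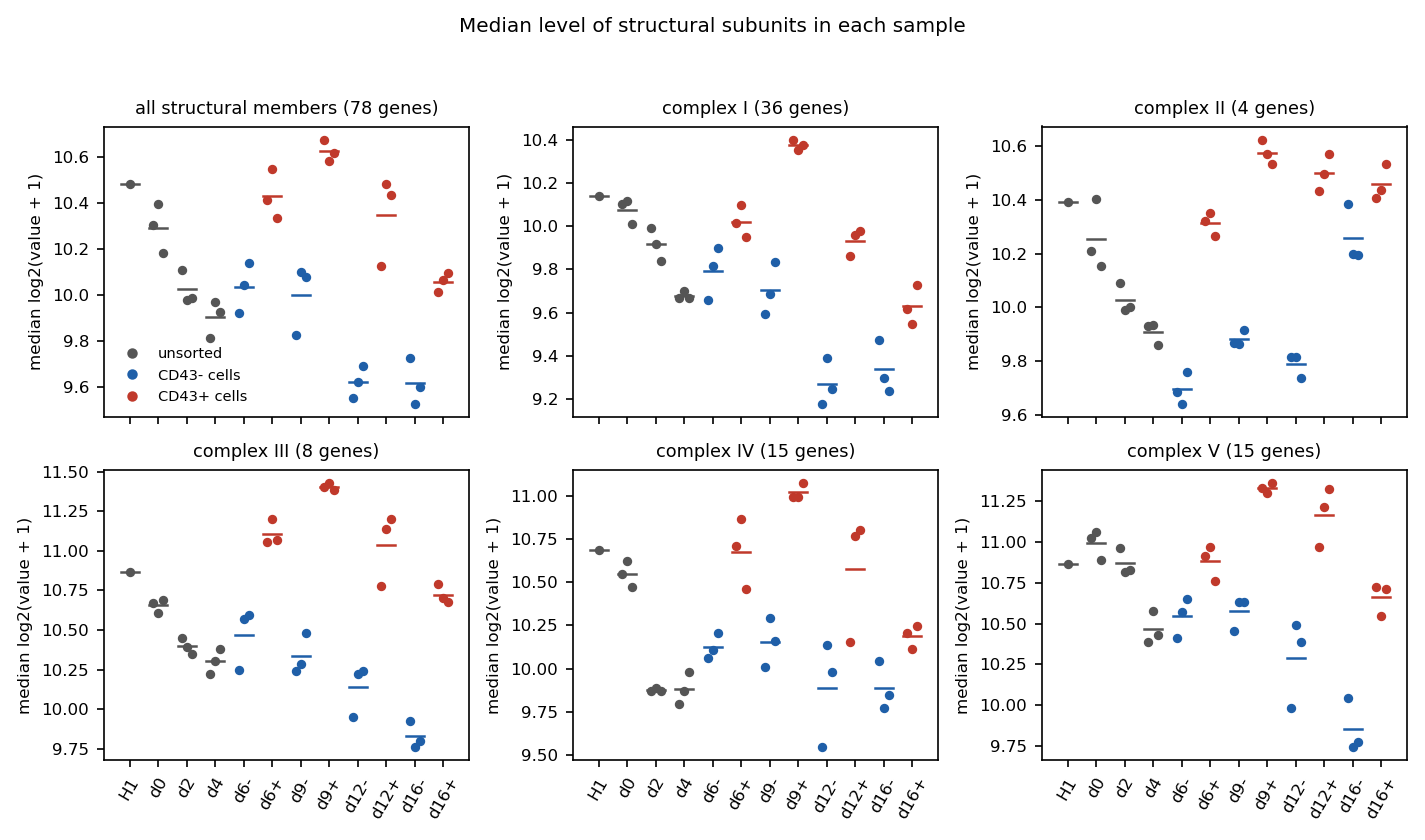
Median level of the structural members in each sample, as log2(value + 1), for all 78 and for each complex; the horizontal axis gives the population (d6- is day 6 CD43-), points are samples and lines are means. CD43+ cells (red) peak on day 9 at 10.62 over all members, and CD43- cells (blue) are lowest on days 12 and 16 at 9.62.

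The central comparison asks how blood-forming CD43+ cells differ from the CD43- cells sorted on the same day. Most structural subunits were higher in CD43+ cells on each day, except that on day 6 the median-of-ratios scaling described further on gave 35 of 78. At an adjusted p below 0.05 (limma, 3 against 3 samples), 54 of 78 structural members were higher and 3 lower on day 6, 68 and 3 on day 9, 68 and 4 on day 12, and 50 and 7 on day 16. Of all genes tested, 28.9% were higher and 21.5% lower on day 6, 38.5% and 27.2% on day 9, 38.9% and 29.1% on day 12, and 37.3% and 30.1% on day 16. The shares of higher structural members were 69.2%, 87.2%, 87.2% and 64.1%. Over all 91 members tested, 58 were higher and 3 lower on day 6, 76 and 3 on day 9, 73 and 5 on day 12, and 54 and 8 on day 16.

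These differences were small in size. The median log2 difference over the structural members was 0.44, 0.74, 0.69 and 0.39 in the order of the sorting days, beside medians over all genes of 0.14, 0.24, 0.22 and 0.14. Few passed the 4-fold threshold that the study used: 2, 5, 4 and 3 members on days 6, 9, 12 and 16, when 12.5%, 21.5%, 26.2% and 25.8% of all genes tested did so. With values rescaled by median-of-ratios factors, which brought the all-gene median of days 6 and 9 to 0.00 and 0.04, the structural median was 0.27 on day 6 and 0.52 on day 9, and on day 6 38 of 91 members, 35 of them structural, were higher and 3 lower, beside 21.5% and 26.2% of all genes under that scaling.

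Other cell types moved with the sort. The 9 mesenchymal and pericyte markers, led by COL1A1 or COL3A1 and with none at 0, summed to 170343 to 185472 in day 6 CD43- cells, 197860 to 248799 on day 9, 244055 to 252182 on day 12 and 241147 to 244252 on day 16. In CD43+ cells, where COL1A2 or COL3A1 led, their sums were 59643 to 155479, 4669 to 22159, 20648 to 45353 and 7261 to 15597. The 4 neutrophil and macrophage markers, MPO among them, summed to 97765 to 113107 in day 12 CD43+ cells and 110772 to 119108 on day 16, but also to 62, 1511 and 5794 in the day 12 CD43- samples and to 4749, 13222 and 9195 in those of day 16. The 4 erythroid markers, led by HBE1, an embryonic globin, summed to 103296 to 111848 in day 6 CD43+ cells and 114736 to 194684 on day 9, and to 5172 to 13369 and 4252 to 9559 on days 12 and 16. By the same test, 4, 5, 5 and 5 of 5 blood markers were higher in CD43+ cells on the 4 days, as were 4, 4, 4 and 3 of 4 erythroid and 1, 3, 4 and 4 of 4 neutrophil and macrophage markers. The blood markers include SPN and PTPRC, which encode CD43 and CD45. A higher SPN on each day, and a higher PTPRC on day 16, follow from the sort itself. Lower were 3, 3, 3 and 4 of 4 endothelial, 5, 7, 8 and 8 of 9 mesenchymal and pericyte, 3, 4, 3 and 4 of 7 striated muscle, and 2, 1, 1 and 2 of 4 pluripotency markers, while 2, 1, 1 and 1 mesenchymal and 1 striated muscle marker were higher. The part of these differences in cell type in the results was not tested. In bulk samples, fewer cells of a type and less RNA per cell cannot be told apart.

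**Figure D2:**
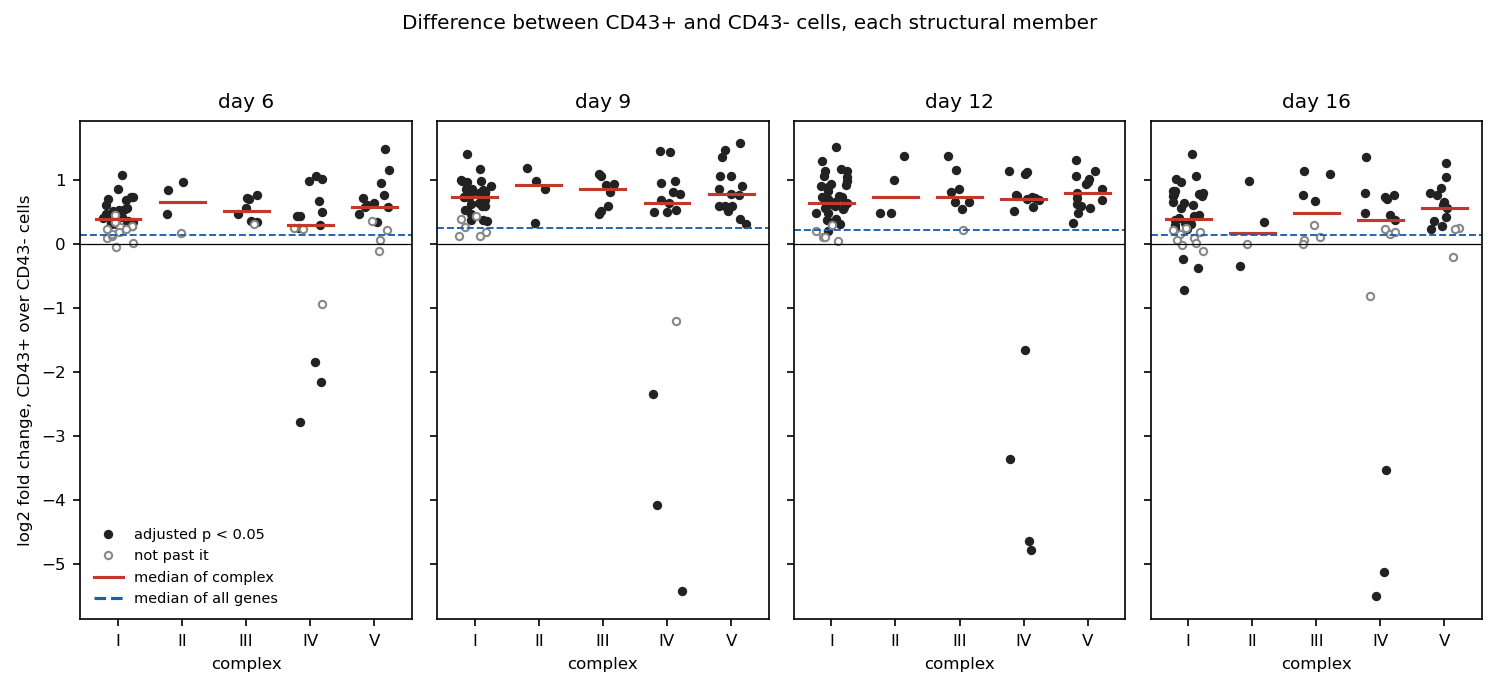
Log2 difference between CD43+ and CD43- cells (vertical axis) for each of the 78 structural members, by complex (horizontal axis) and day; filled points have an adjusted p below 0.05, red lines are complex medians and dashed lines the median of all genes tested. Most members lie above the dashed line, and the lowest points are restricted forms of complex IV.

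Across the 4 days, 40 members were higher in CD43+ cells each time, 37 of them structural, beside 14.6% of all genes tested. Lower on all 4 days, as were 12.7% of all genes, were COX4I2, COX6B2 and NDUFA4L2, the first of which passed the filter on low values only through the CD43- cells where it was high. NDUFA11, NDUFB2-AS1, NDUFC2-KCTD14, NDUFS4 and UQCRHL passed the test on none of the days, and NDUFA10, NDUFV3 and SDHA were higher on 1 day or more and lower on another (these 8 were named after their values were seen). Outside the 4 restricted forms, none of 74 structural members was lower on days 6, 9 or 12, and 4 were lower on day 16. The scale of the difference varied within each complex, and the members at its ends are given by complex. Beside the counts given there, 28.9%, 38.5%, 38.9% and 37.3% of all genes tested were higher on days 6, 9, 12 and 16. Lower were 21.5%, 27.2%, 29.1% and 30.1% of all genes.

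Complex I takes electrons from NADH. Of its 36 structural members, 24, 30, 31 and 24 were higher in CD43+ cells on days 6, 9, 12 and 16; 3 were lower, all on day 16. NDUFV2, an iron-sulphur subunit of the NADH-binding arm, was at 684, 697 and 643 in day 6 CD43- cells and at 1333, 1509 and 1418 in day 6 CD43+ cells. On day 9 it was at 702, 704 and 876 against 1966, 2150 and 1892. The groups stood apart on both days, with log2 differences of 1.07 ± 0.15 (SE, adjusted p = 1.37e-06) and 1.40 ± 0.15 (adjusted p = 6.59e-09). Its gene (chr18:9102630-9134345, plus strand) overlaps the antisense NDUFV2-AS1, whose highest value was 24.

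NDUFB3, an accessory subunit of the membrane arm, led complex I on the later days. Its values were 190, 246 and 178 in day 12 CD43- cells and 476, 616 and 656 in CD43+ cells, and on day 16 166, 182 and 166 against 438, 434 and 492. The lowest CD43+ sample was above the highest CD43- sample by far on both days, and the log2 differences were 1.51 ± 0.13 and 1.40 ± 0.13 (adjusted p = 6.15e-11 and 2.63e-10). In the other direction, the accessory subunit NDUFA5 was at 1063, 650 and 700 in day 16 CD43- cells and at 330, 610 and 542 in CD43+ cells, a log2 difference of -0.71 ± 0.21 (adjusted p = 0.00387), with 1 low CD43+ and 1 high CD43- sample (-0.45 without CD43+ replicate 1, where the call was lost); NDUFA10 and NDUFV3 were the other complex I members lower on that day.

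Complex II oxidises succinate, and its 4 subunits gave 3, 4, 4 and 2 higher calls on the 4 days and 1 lower call on day 16. On day 16 that is 50% higher and 25% lower, beside 37.3% and 30.1% of all genes tested. The median log2 difference of the 4 was then 0.17, near the 0.14 of all genes. SDHB, the iron-sulphur subunit (chr1:17018722-17054170, minus strand), had the largest difference of the 4 on every day. It was at 378, 416 and 432 in day 6 CD43- cells against 836, 832 and 718 in CD43+ cells, at 429, 405 and 544 against 1052, 1058 and 1000 on day 9, at 341, 382 and 346 against 860, 956 and 942 on day 12, and at 532, 520 and 506 against 953, 1027 and 1087 on day 16. No CD43- sample reached any CD43+ sample. The log2 differences were 0.96, 1.18, 1.37 and 0.97, each ± 0.09 (SE), with adjusted p between 8.89e-13 and 3.86e-09.

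SDHA, the flavoprotein that binds succinate (chr5:218241-256700, plus strand), changed sides. In CD43+ cells it was at 1892, 1817 and 1672 on day 6, 2636, 2464 and 2588 on day 9, 1959, 2034 and 2168 on day 12 and 2010, 1951 and 1841 on day 16. In CD43- cells it was at 1332, 1274 and 1274, then 1431, 1355 and 1455, then 1504, 1607 and 1300, and on day 16 at 2300, 2616 and 2464. The CD43- samples were thus the lower on days 6 to 12 and the higher on day 16, without overlap on any day. The log2 differences were 0.47, 0.86, 0.49 and -0.35 (each ± 0.08 SE; adjusted p = 9.40e-06, 1.65e-10, 2.38e-06 and 0.000224).

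SDHC and SDHD anchor the complex in the membrane. SDHD was higher in CD43+ cells on every day, by 0.84, 0.98, 0.99 and 0.35 (± 0.14 SE), but on day 16 its samples overlapped at 921, 763 and 769 against 830, 1124 and 1192 (adjusted p = 0.0332); the call was lost with a replicate block, with only the compared populations fitted and without any one of 4 samples, day 16 CD43- replicates 2 and 3 or CD43+ replicates 2 and 3, where it ranged from 0.25 to 0.31. SDHC was at 1418, 1460 and 1728 against 1722, 1722 and 1722 on day 6, where it did not pass (adjusted p = 0.137), and higher by 0.32 and 0.48 on days 9 and 12 (the day 9 call was lost with median-of-ratios scaling, at 0.10). On day 16 it was at 1934, 1806 and 1779 against 1934, 1703 and 1862, a log2 difference of -0.01 ± 0.09 (adjusted p = 0.966). Equal values in all 3 samples, as in SDHC here, can occur where every sample holds the same set of values; ATP5A1 on day 4 and ATP5B in day 6 and day 9 CD43+ cells were tied in the same way.

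**Figure D3:**
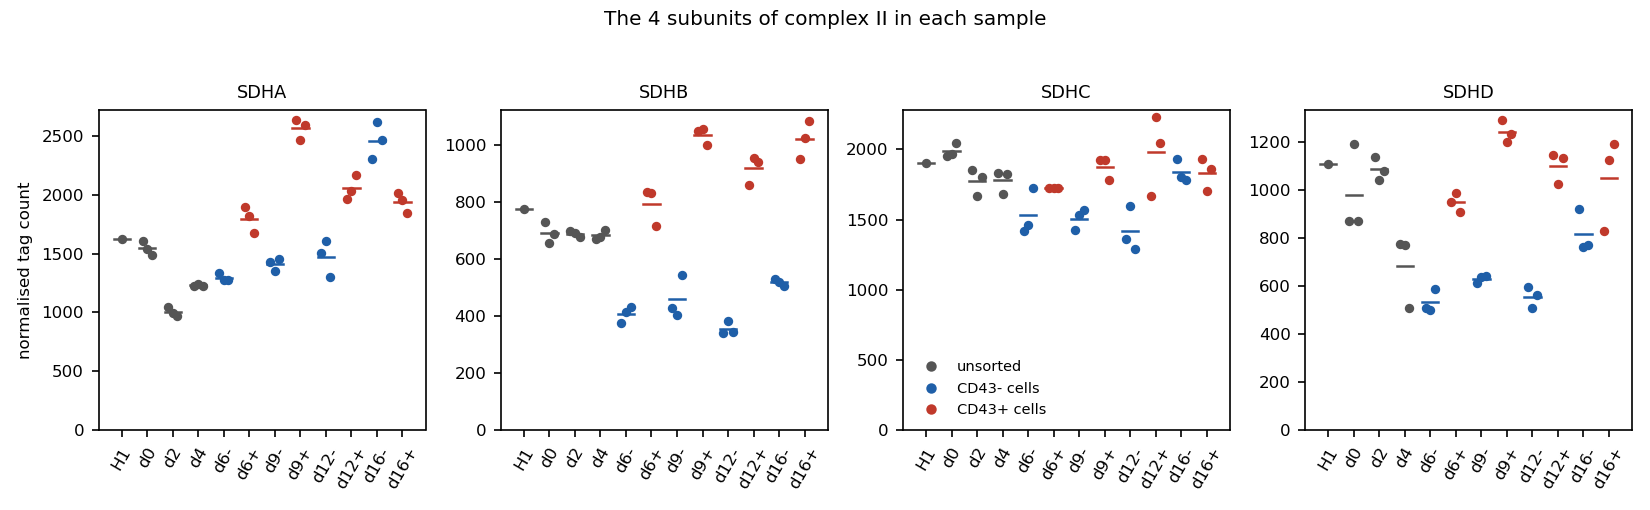
Normalised tag counts (vertical axis, from 0) of SDHA, SDHB, SDHC and SDHD in each sample of the 12 populations, with means as lines. SDHB separates CD43+ (red) from CD43- cells (blue) on every day, whereas SDHA in CD43- cells stands between 2300 and 2616 on day 16, above the CD43+ cells.

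Complex III hands electrons to cytochrome c. Its 8 members gave 7, 8, 7 and 4 higher calls on the 4 days and none lower. The share on day 16 was 50%, beside 37.3% of all genes tested. UQCRFS1, the Rieske iron-sulphur protein, was at 1094, 1194 and 1280 in day 9 CD43- cells and 2484, 2584 and 2484 in CD43+ cells, and on day 16 at 1098, 972 and 994 against 2376, 2064 and 2284. Both sets were well apart (log2 differences 1.08 and 1.13, ± 0.11 SE, adjusted p = 1.33e-09 and 4.23e-10). UQCRC2, a core protein, led on day 6 with 1710, 1680 and 1991 against 3059, 3204 and 2862 (0.76 ± 0.11, adjusted p = 3.04e-06). UQCRB, a ubiquinone-binding subunit, led on day 12 with 1284, 1924 and 1959 against 3000, 5196 and 5318 (1.37 ± 0.18, adjusted p = 1.96e-07), where 1 sample of each group was well below the other 2.

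Complex IV reduces oxygen, and it was split. Outside the restricted forms, 9 of its 11 members were higher in CD43+ cells on day 6, all 11 on days 9 and 12 and 8 on day 16, with none lower. COX5A, a subunit next to the catalytic core, was at 1055, 1258 and 1372 in day 9 CD43- cells and at 3159, 3372 and 3420 in CD43+ cells (1.44 ± 0.12, adjusted p = 6.94e-11). It also led the complex on day 6, at 1.06 ± 0.12 (adjusted p = 5.30e-08). The small membrane subunit COX8A led on day 12, with 894, 1150 and 1226 against 1966, 2564 and 2675 (1.14 ± 0.13, adjusted p = 1.50e-08), and COX7B on day 16, with 456, 388 and 335 against 970, 947 and 1092 (1.36 ± 0.17, adjusted p = 8.03e-08). In none of these did the groups overlap.

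The restricted forms went the other way. COX6B2 (chr19:55349306-55354814, minus strand) was at 244, 194 and 139 on day 0, 8, 18 and 24 on day 2 and 22, 28 and 36 on day 4. In CD43- cells it was at 188, 114 and 338 on day 6, 584, 1236 and 374 on day 9, 1098, 2074 and 921 on day 12 and 1972, 1915 and 1685 on day 16. In CD43+ cells it was at 24, 30 and 28, then 17, 12 and 14, then 163, 96 and 122, and finally 176, 112 and 206. The CD43- samples were above the CD43+ samples on all 4 days, and the log2 differences were -2.79, -5.41, -3.36 and -3.53 (± 0.41 SE, adjusted p = 2.40e-06, 7.99e-12, 4.05e-08 and 1.76e-08).

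Its broad counterpart COX6B1 showed the opposite. It was at 1054, 910 and 921 in day 16 CD43- cells and 1651, 1493 and 1746 in CD43+ cells, and its log2 differences were 0.30, 0.63, 0.76 and 0.76 (± 0.09 SE) on the 4 days. All 4 passed the test (adjusted p = 0.00914, 1.48e-06, 5.89e-08 and 5.78e-08); the first was lost with median-of-ratios scaling and without day 6 CD43+ replicate 2 (0.25).

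NDUFA4L2 (chr12:57234903-57240715, minus strand, overlapping SHMT2 on the other strand) had a high day 0 as well. It was at 14 in undifferentiated H1 cells, 500, 396 and 232 on day 0, 10, 0 and 4 on day 2 and 4, 6 and 8 on day 4. In CD43- cells it was at 7, 12 and 64 on day 6, 70, 64 and 12 on day 9, 71, 96 and 131 on day 12 and 436, 359 and 369 on day 16, whereas no CD43+ sample of days 6 to 16 was above 13. The groups did not overlap on any of the 4 days, but single CD43- samples on days 6 and 9 lay near the CD43+ cells. The log2 differences were -1.84, -2.34, -4.64 and -5.50 (± 0.72 SE, adjusted p = 0.0358, 0.00603, 2.67e-06 and 1.84e-07), and values this close to 0 make them depend on the pseudocount; the day 6 call was lost with a pseudocount of 0.1, at -0.95 without day 6 CD43- replicate 3 and at -1.43 without day 6 CD43+ replicate 2. NDUFA4, the broad form, was at 1215, 979 and 982 against 1426, 1244 and 1410 on day 16 (0.37 ± 0.15, adjusted p = 0.0332, lost without CD43- replicate 2 or 3 or CD43+ replicate 1 or 3) and did not pass on day 6 (0.24 ± 0.15, adjusted p = 0.189). It was higher in CD43+ cells on day 9 (0.50 ± 0.15, adjusted p = 0.00488, lost with median-of-ratios scaling at 0.28). On day 12 it was higher as well (0.51 ± 0.15, adjusted p = 0.0036).

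COX4I2 was low overall. In CD43- cells it was at 3, 1 and 10 on day 6, 18, 44 and 10 on day 9, 25, 51 and 44 on day 12 and 90, 124 and 86 on day 16. In day 6 CD43+ cells it was listed at 0 in all 3 samples, and in CD43+ cells of days 9, 12 and 16 at 0, 1 and 0, at 0, 0 and 2, and at 0, 5 and 3. No CD43+ sample reached the CD43- samples of its day. The gene passed the filter on low values only through CD43- cells, so these values are a description and no p is given, although it is counted among the members that passed the test; its day 6 call was lost with a pseudocount of 10 or without day 6 CD43- replicate 3. COX4I1, the broad form, was higher in CD43+ cells by 0.25, 0.49 and 0.72 (± 0.11 SE) on days 6, 9 and 12 (adjusted p = 0.0473, 0.000202 and 9.43e-07; the first was lost with median-of-ratios scaling and without CD43- replicate 1 or 2 or CD43+ replicate 1 or 2) and at 2794, 2810 and 2578 against 3118, 3262 and 3210 on day 16 (adjusted p = 0.0558). COX7A1, at 60 or less in every sample, was lower in CD43+ cells on day 12 (-1.66 ± 0.61, adjusted p = 0.0181, lost without CD43- replicate 3 or CD43+ replicate 2 or 3) and did not pass on the other days.

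**Figure D4:**
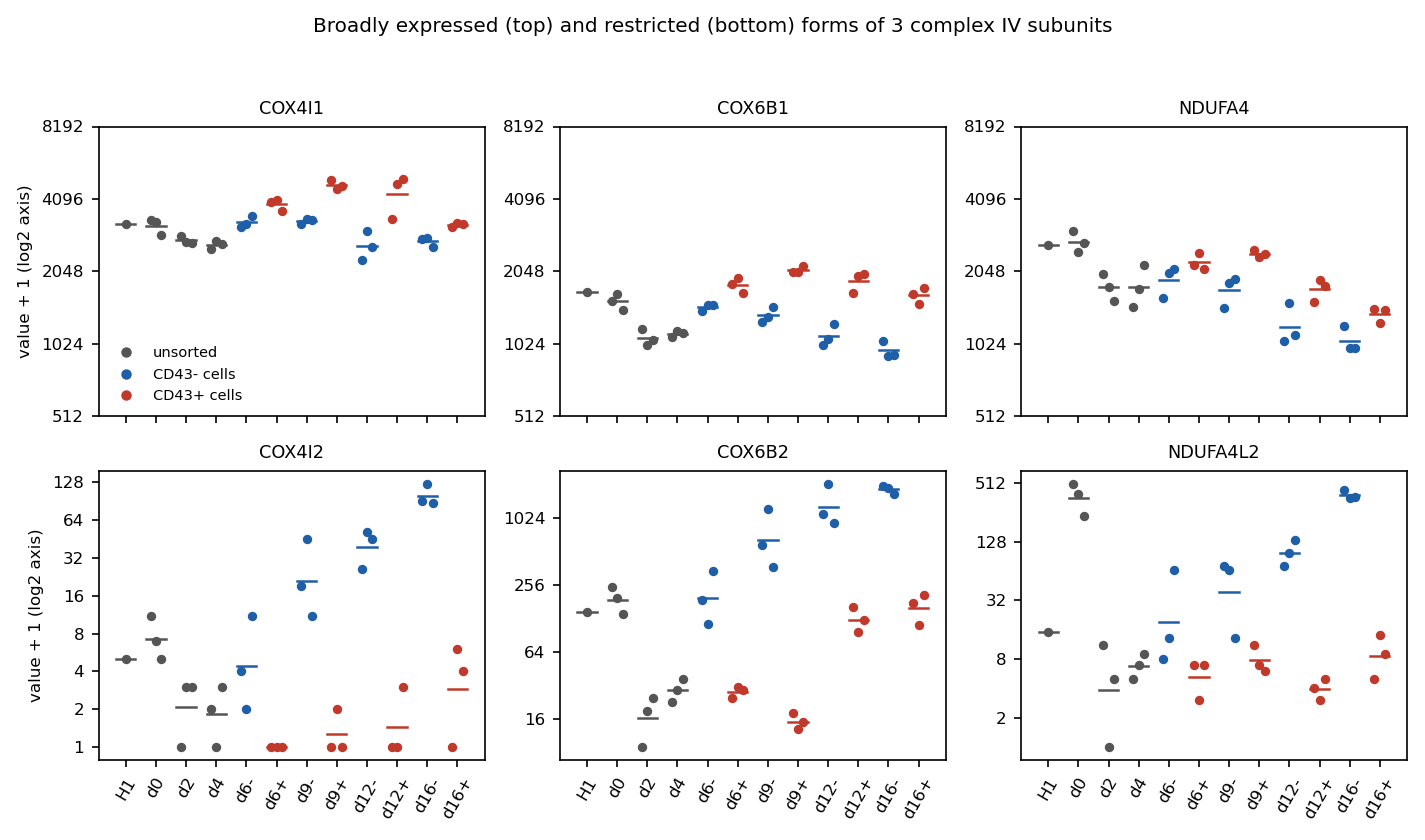
Value + 1 on a log2 axis for COX4I1, COX6B1 and NDUFA4 (top) and for COX4I2, COX6B2 and NDUFA4L2 (bottom) in each sample of the 12 populations; lines are means of the logs. In the bottom row each CD43- sample (blue) lies above the CD43+ samples (red) of its day, which stay at 206 or less, and in the top row CD43+ cells are level with or above CD43- cells.

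Complex V makes ATP. Of its 15 members, 11 were higher in CD43+ cells on day 6, all 15 on days 9 and 12 and 12 on day 16, with none lower. ATP5B, the catalytic beta subunit (chr12:56638175-56646068, minus strand), was at 8076, 8675 and 7768 in day 6 CD43- cells and at 22818 in all 3 CD43+ samples (1.48 ± 0.08, adjusted p = 1.65e-13). By day 12 it was at 5779, 5900 and 5552 against 8966, 10430 and 10430. At such high values the shared set of values is coarse, so little can be read from the spread between replicates there.

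The c-ring of complex V, through which protons pass, is encoded by ATP5G1, ATP5G2 and ATP5G3, which yield the same mature peptide. ATP5G1 was at 368, 369 and 404 in day 9 CD43- cells and 1058, 1210 and 1125 in CD43+ cells, the largest difference in complex V on that day (1.57 ± 0.11, adjusted p = 1.94e-12), and its differences on days 6, 12 and 16 were 1.15, 1.13 and 0.66. ATP5G3 differed by 0.64, 1.06, 1.05 and 0.55 (± 0.13 SE) and ATP5G2 by 0.72, 0.58, 0.58 and 0.27 (± 0.11 SE), all past the test, though the day 16 samples of ATP5G2 overlapped at 4074, 3242 and 3538 against 4840, 4032 and 4238 and that call was lost with only the compared populations fitted and without CD43- replicate 2 or 3 or CD43+ replicate 1. ATP5F1, a peripheral stalk subunit, led on day 12 with 1009, 1496 and 1340 against 2542, 3380 and 3615 (1.31 ± 0.14, adjusted p = 6.35e-09). ATP5E, the epsilon subunit, led on day 16 with 738, 649 and 592 against 1688, 1497 and 1531 (1.26 ± 0.15, adjusted p = 4.60e-08).

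Of the 13 tested members that are not structural, 4, 8, 5 and 4 were higher on days 6, 9, 12 and 16, and 0, 0, 1 and 1 lower. As shares, 30.8%, 61.5%, 38.5% and 30.8% were higher, beside 28.9%, 38.5%, 38.9% and 37.3% of all genes tested. On days 6, 12 and 16 these shares lay near or below those of all genes. Of all genes, 21.5%, 27.2%, 29.1% and 30.1% were lower. SDHAF3, an assembly factor for the SDHB subunit, had the largest difference of the 42 assembly factors on days 6, 9 and 12. It was at 64, 68 and 78 against 213, 235 and 202 on day 6, 50, 68 and 70 against 290, 283 and 232 on day 9, 30, 30 and 29 against 118, 152 and 154 on day 12, and 68, 57 and 58 against 150, 190 and 176 on day 16. CD43+ samples were always the higher, and the log2 differences of the first 3 days were 1.62, 2.09 and 2.20 (± 0.17 SE, adjusted p = 1.17e-08, 3.55e-11 and 7.82e-12). Readthrough and antisense members (ATP5J2-PTCD1, NDUFC2-KCTD14, NDUFV2-AS1, NDUFA6-AS1) share sequence or span with their neighbours. In all, 43 members overlap another gene of the table, COX4I1 (with EMC8), SDHD (with TIMM8B) and ATP5E (with TUBB1) among them, so how reads were divided between them is uncertain.

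Between days, the first fall came before sorting. From day 0 to day 4, 53 of 91 members fell and 4 rose, when 25.7% of all genes fell and 23.5% rose. Over the same days 7 of 9 mesenchymal and pericyte, 4 of 4 endothelial, 4 of 7 striated muscle, 3 of 5 blood and 2 of 4 erythroid markers rose, and 3 of 4 pluripotency markers, 16 of 22 glycolysis genes and 10 of 14 hypoxia-response genes fell. Also rising were 1 of 4 neutrophil and macrophage markers, 1 glycolysis gene and 2 hypoxia-response genes. The mesenchymal and pericyte sum, led by COL1A1 or COL1A2 on day 0 and by COL3A1 on day 4, was 6438 to 10060 on day 0 and 117352 to 175639 on day 4, and the pluripotency sum, led by POU5F1 and then LIN28A, was 52155 to 58036 and then 16472 to 18873. Their part in the fall was not tested. In complex IV, 13 of 15 members fell. NDUFA4L2 (-5.72 ± 0.72, adjusted p = 2.13e-07) and COX6B2 (-2.69 ± 0.41, adjusted p = 3.31e-06) fell most. The accessory complex I subunit NDUFA6 rose from 1061, 1027 and 1068 to 1587, 1564 and 1560 (0.58 ± 0.11, adjusted p = 0.000107), and so did NDUFA6-AS1, which overlaps it on the other strand, from 150, 197 and 134 to 376, 323 and 340 (1.12 ± 0.23, adjusted p = 0.000192).

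After day 4 the sorted populations are compared with the same day 4 samples. In day 6 CD43+ cells 58 members were higher than on day 4 and 3 lower, beside 27.1% and 24.9% of all genes. In day 6 CD43- cells 23 were higher and 20 lower, beside 19.7% and 25.2%; with median-of-ratios scaling this split was 29 and 15. COX7C, a small complex IV subunit, was at 1252, 1185 and 1497 on day 4 and at 4283, 4283 and 3481 in day 6 CD43+ cells (1.61 ± 0.15, adjusted p = 9.34e-10), against 1742, 2014 and 2345 in day 6 CD43- cells. ATP5E was the largest structural rise outside the restricted forms in CD43- cells, from 469, 684 and 670 to 1714, 1868 and 1597 (1.52 ± 0.15, adjusted p = 1.51e-08). Cell type markers moved in the same comparisons. In day 6 CD43+ cells 4 of 4 erythroid, 4 of 5 blood, 2 of 4 endothelial, 1 of 9 mesenchymal and 1 of 4 neutrophil and macrophage markers were higher than on day 4, and 4 of 9 mesenchymal, 4 of 7 striated muscle and 3 of 4 pluripotency markers lower. In day 6 CD43- cells 3 of 4 endothelial, 2 of 9 mesenchymal and 2 of 4 erythroid markers were higher, and 2 of 9 mesenchymal, 2 of 7 striated muscle, 3 of 4 pluripotency, 2 of 5 blood and 2 of 4 erythroid markers lower. Their part in the members' changes was not tested.

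From day 6 to day 12, 47 members fell and 11 rose in CD43- cells, when 27.9% of all genes fell and 21% rose; with only the compared populations fitted, 29 members passed in place of 58. NDUFS6, an accessory complex I subunit, fell from 926, 1061 and 982 to 476, 315 and 492 (-1.23 ± 0.15, adjusted p = 3.02e-07). In CD43+ cells 27 fell and 12 rose, beside 35.8% and 27.8% of all genes, but with median-of-ratios scaling 14 fell and 25 rose, so the direction of the group there depended on the scaling. ATP5B fell in CD43+ cells (-1.20 ± 0.08, adjusted p = 1.59e-12) and ATP5H, a peripheral stalk subunit, rose from 1180, 1231 and 1088 to 2238, 1924 and 2664 (0.95 ± 0.12, adjusted p = 1.40e-07). Among the markers, 5 of 9 mesenchymal, 4 of 4 neutrophil and macrophage, 3 of 5 blood and 1 of 7 striated muscle genes rose in CD43- cells, and 3 of 4 endothelial, 5 of 7 striated muscle, 3 of 4 pluripotency, 2 of 4 erythroid and 1 of 5 blood genes fell. In CD43+ cells 4 of 4 neutrophil and macrophage, 2 of 5 blood, 1 of 7 striated muscle and 1 of 4 pluripotency markers rose, and 3 of 4 erythroid, 7 of 9 mesenchymal, 3 of 4 endothelial, 5 of 7 striated muscle, 1 of 5 blood and 1 of 4 pluripotency markers fell. Their part in the members' falls and rises was not tested.

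From day 12 to day 16, 37 members fell and 6 rose in CD43+ cells, when 21.1% of all genes fell and 21.3% rose. ATP5I, a small membrane subunit of complex V, fell from 874, 1226 and 1209 to 390, 398 and 334 (-1.55 ± 0.15, adjusted p = 7.96e-09), and NDUFB1 from 564, 816 and 746 to 260, 271 and 354 (-1.26 ± 0.16, adjusted p = 9.57e-07). In the same CD43+ samples 2 of 4 endothelial markers rose, while 2 of 9 mesenchymal, 1 of 4 erythroid, 1 of 7 striated muscle, 1 of 4 pluripotency and 1 of 5 blood markers fell, and their part was not tested. In CD43- cells 28 rose and 19 fell, beside 24.8% and 20.8% of all genes, and 21 rose and 23 fell with median-of-ratios scaling; with only the compared populations fitted, 30 members passed in place of 47. ATP5I fell there too, from 620, 732 and 784 to 294, 221 and 228 (-1.52 ± 0.15, adjusted p = 8.64e-09), whereas all 4 complex II subunits rose, by between 0.38 and 0.75. Markers of blood cells moved in the same samples: all 4 erythroid markers rose, their sum being 3, 71 and 189 in the day 12 CD43- samples, with 2 of the 4 at 0 in each, and 1504, 1559 and 3352 in those of day 16, led by HBE1 with none at 0. Of the 4 neutrophil and macrophage markers, 2 rose and 2 fell. Other markers that rose were 1 of 4 endothelial, 2 of 7 striated muscle, 1 of 4 pluripotency and 1 of 5 blood genes. Falling were 1 of 9 mesenchymal, 1 striated muscle, 2 pluripotency and 1 blood gene. The endothelial sum, led by KDR, was 25972 to 42760 in the day 12 samples and 47497 to 59956 in those of day 16. The part of these markers in the rise of complex II was not tested. NDUFA4L2 rose as well (1.99 ± 0.72, adjusted p = 0.0264), a call lost with a pseudocount of 0.1 and without any one of 5 of the 6 samples compared, while COX6B2 (0.53 ± 0.41, adjusted p = 0.293) did not pass.

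Whether the gap between CD43+ and CD43- cells changed was tested directly. From day 6 to day 12 it moved up for 26 members and down for 6, beside 21.8% and 23% of all genes. The largest upward moves were those of ATP5E (1.06 ± 0.22, adjusted p = 0.000221), COX8A (0.90 ± 0.18, adjusted p = 0.00024) and NDUFB3 (0.90 ± 0.18, adjusted p = 0.000218), which were higher in CD43+ cells on day 12. NDUFA4L2, already lower in CD43+ cells on day 6, moved down by far more (-2.79 ± 1.02, adjusted p = 0.0277), a call that was lost with a pseudocount of 0.1 and with single samples left out. COX4I2 is counted among the 6 too; it is given no size, since it was listed at 0 in all 3 day 6 CD43+ samples. From day 12 to day 16 it moved down for 19 members and up for none, beside 9.08% and 7.92%. The largest of these moves were those of SDHA (-0.83 ± 0.11, adjusted p = 6.19e-06), the alpha subunit ATP5A1 (-0.78 ± 0.14, adjusted p = 0.000342) and SDHAF3 (-0.73 ± 0.24, adjusted p = 0.0365, a call that was lost with a pseudocount of 10, median-of-ratios scaling, a replicate block or only the compared populations in the fit), and all 4 complex II subunits were among the 19. This count of 19 was 8 with only the compared populations fitted, 10 without day 12 CD43+ replicate 3, 11 without day 16 CD43- replicate 1, 12 without day 12 CD43+ replicate 2 or with median-of-ratios scaling, and 32 without day 12 CD43+ replicate 1. The count of 32 for day 6 to day 12 was 16 with only the compared populations fitted, 19 without day 6 CD43+ replicate 3 and 21 without day 12 CD43+ replicate 2. From day 12 to day 16 the gap also moved down for 3 of 4 erythroid, 1 of 9 mesenchymal and 1 of 4 pluripotency markers. It moved up for 1 of 4 endothelial markers. Of 4 neutrophil and macrophage markers 2 moved each way, and of 5 blood markers 1 each way. Down too, with none up, were 30 of 78 mitochondrial ribosomal proteins, 10 of 42 assembly factors and 5 of 13 TCA cycle enzymes. The part of the markers was not tested.

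Genes around the complexes were counted on the same test, from lists of their known functions. For these and the lists that follow, 28.9%, 38.5%, 38.9% and 37.3% of all genes tested were higher on days 6, 9, 12 and 16. The shares of all genes that were lower were 21.5%, 27.2%, 29.1% and 30.1%. Higher and lower in CD43+ cells on days 6, 9, 12 and 16 were 30 and 0, 39 and 0, 37 and 0, and 27 and 2 of 42 assembly factors, SDHAF1 to SDHAF4 included. Of 78 mitochondrial ribosomal proteins, which make the subunits encoded in mitochondrial DNA, 70 and 0, 75 and 1, 65 and 3, and 41 and 10 were higher and lower. The 13 TCA cycle enzymes gave 11 and 0, 13 and 0, 11 and 0, and 9 and 2. The 13 carriers and further subunits outside the name rule, cytochrome c among them, gave 9 and 0, 11 and 0, 9 and 1, and 7 and 2. Their median log2 difference on day 16 was 0.30, beside 0.14 over all genes.

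Single genes show the sizes. MDH2, malate dehydrogenase, was at 1746, 2069 and 2042 against 4295, 4295 and 4082 on day 6 (1.12 ± 0.10, adjusted p = 3.17e-10). The broadly expressed ADP/ATP carrier SLC25A5 was at 2640, 2399 and 2748 against 8466, 7883 and 8240 on day 9 (1.66 ± 0.10, adjusted p = 2.14e-13). SLC25A4, the heart and muscle form of that carrier, was at 316, 266 and 344 against 78, 99 and 113 on day 16 and so lower in CD43+ cells (-1.67 ± 0.15, adjusted p = 1.60e-10). COX17, a copper chaperone for complex IV, was at 82, 70 and 78 against 280, 296 and 274 on day 16 (1.87 ± 0.16, adjusted p = 7.07e-11).

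Glycolysis and hypoxia genes stood closer to, or on the other side of, the background. Of 22 glycolysis genes, 8, 13, 12 and 9 were higher and 4, 3, 5 and 5 lower on the 4 days. SLC2A1, the main glucose transporter of many cells, was at 10787, 11160 and 25776 against 2940, 3310 and 2275 on day 6 and at the table's highest value, 90700, in all 3 day 16 CD43- samples, against 930, 878 and 925. HK3, a hexokinase of myeloid cells, was at 7, 42 and 20 against 2275, 1930 and 3984 on day 16. Of 14 hypoxia-response genes, 3, 3, 1 and 0 were higher and 9, 7, 7 and 6 lower. EPAS1, a hypoxia-inducible factor subunit known from endothelium, was at 8506, 5134 and 4846 against 208, 198 and 330 on day 9 (-4.64 ± 0.28, adjusted p = 8.85e-14).

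**Figure D5:**
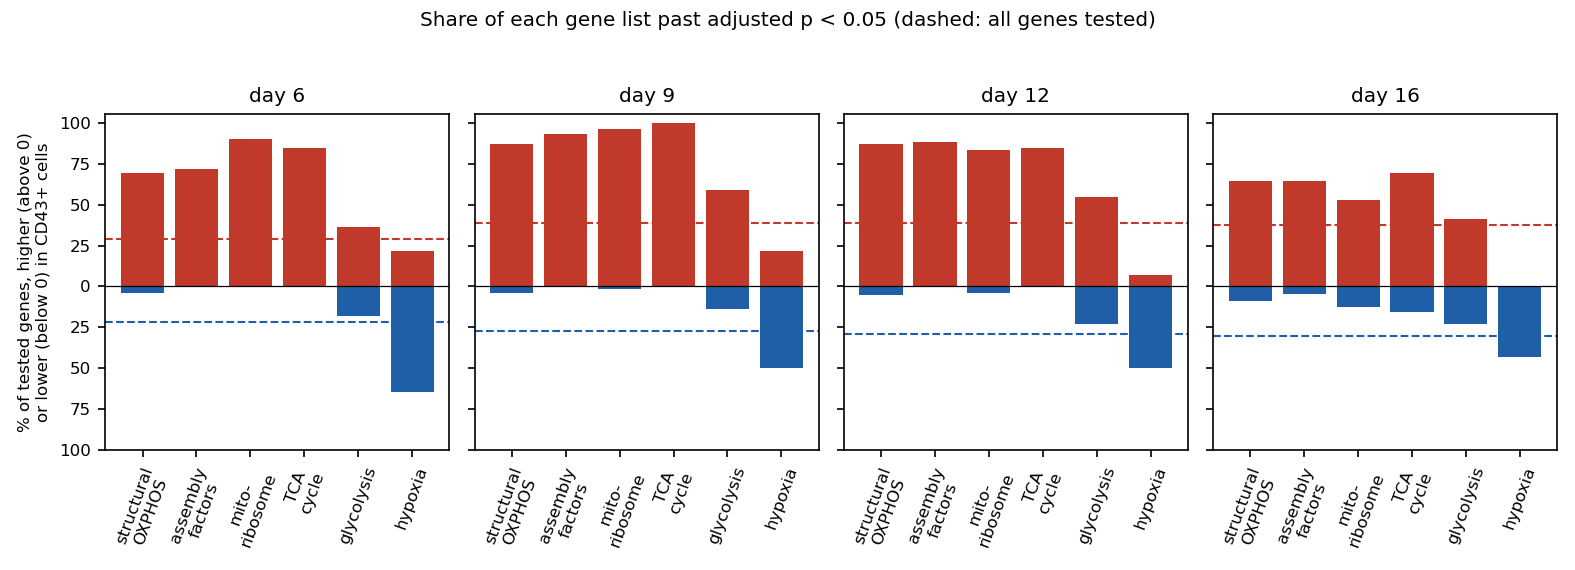
Percentage of the tested genes of each list with an adjusted p below 0.05, higher in CD43+ cells (red, above 0) or lower (blue, below 0), on the 4 sorting days; dashed lines are the shares over all genes tested. Structural members, assembly factors, mitochondrial ribosomal proteins and TCA cycle enzymes exceed the upper dashed line on each day, and hypoxia genes exceed the lower one.

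Of 15 regulators of mitochondrial biogenesis, 9, 9, 7 and 7 were higher and 1, 2, 4 and 4 lower. The counts of days 12 and 16 lie near the shares of all genes, which were 38.9% higher and 29.1% lower on day 12 and 37.3% and 30.1% on day 16. MYC, a growth regulator, was at 709, 1290 and 1174 against 5870, 5010 and 5614 on day 6 (2.42 ± 0.25, adjusted p = 9.23e-09) and at 2084, 3232 and 6556 against 629, 835 and 960 on day 12, where CD43- cells were the higher. ESRRG, an oestrogen-related receptor, was at 10, 14 and 13 in day 16 CD43- cells and listed at 0 in all 3 CD43+ samples.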

How the data were processed

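RNA-seq of 34 samples in 12 populations of differentiating H1 cells was analysed. The authors aligned reads with Bowtie2, counted them per Ensembl gene with RSEM and normalised for GC content with EDASeq; the submitters' processing notes also list bcl2fastq and STAR 2.7, with no role stated. The deposited values, a score here, are normalised tag counts rounded to whole numbers, with the same sorted values in all 34 samples; they are neither raw counts nor CPM, so limma replaced a count test. The table as deposited also gives each gene's GC content in percent. Whether counting used strand is not given in the sources used here.

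The test was limma 3.58.1 (trend option; R 4.3.3) on log2(value + 1), in 1 fit of the 33 samples of replicated populations; the single undifferentiated H1 sample was not fitted. Genes with at least 10 in at least 3 samples were kept (19788 of 20255). Benjamini-Hochberg adjustment ran over all of them, and an adjusted p below 0.05 passed. The log2(value + 1) scale understates changes of low genes. The study's methods describe the replicates as biological; samples were sequenced at 2 providers, and which sample went where is not given in the sources used here, so provider could not be separated from population. Replicate correlations within populations were 0.951 to 0.987.

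Named genes were the isoform pairs, SDHA to SDHD, the highest and lowest member of each complex that passed without overlap between groups on each sorting day, the largest rises and falls between days, and the gene of each list with the largest change. The lists were carriers, assembly factors, TCA cycle, glycolysis, biogenesis regulators, hypoxia response, mitochondrial ribosomal proteins, and markers of blood, endothelial, mesenchymal and pericyte, striated muscle, pluripotent, erythroid, and neutrophil and macrophage cells. Members and lists were chosen with earlier results of these data known. Alternatives covered the pseudocount, filter, scaling, samples fitted, replicate block, fold threshold and each sample left out. The main fit held no pairing on any day, and same-numbered samples were joined only in the alternative with a replicate block. Such samples of day 6 deviated together (r = 0.198, 0.109 and 0.199). On day 9 r was 0.017, 0.078 and 0.038, on day 12 0.084, 0.108 and 0.039, and on day 16 -0.015, 0.025 and 0.042. Whether the numbers mark pairs is not known. The procedure was tested on simulated data for CD43+ against CD43- cells on day 12. Of 50 genes given a log2 difference of 0.5, 12 were recovered, and 42 of 50 given 1. At 2 all 50 were recovered and at -1 41 of 50, with 12 false calls among the unchanged ones of 19788 genes. Only these few genes were changed, whereas on day 12 of the data 38.9% of all genes tested were higher and 29.1% lower. The Benjamini-Hochberg threshold was thus stricter in the simulation, and these shares do not measure recovery in the data. A member that did not pass is still not shown to be unchanged.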

Additional observations from a re-analysis of the deposited data

Results flagged for a closer look

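The CD43+ against CD43- difference was tested for a change between days, and the named members below passed that test (limma, adjusted p below 0.05, log2 scale). Explanations were not weighed.

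From day 6 to day 12 the difference moved up by 1.06 for ATP5E, 0.90 for COX8A, 0.90 for NDUFB3, 0.79 for NDUFB1, 0.67 for UQCRB, 0.60 for NDUFS6, 0.59 for SDHAF3, 0.59 for UQCRFS1, 0.55 for ATP5F1, 0.47 for COX4I1, 0.46 for COX6B1 and 0.41 for SDHB. It moved by -0.39 for ATP5A1, -0.69 for ATP5B, -0.88 for NDUFA6-AS1 and -2.79 for NDUFA4L2. The call of NDUFA4L2 was lost with a pseudocount of 0.1 and without any one of 6 single samples, and that of NDUFA6-AS1 with only the compared populations fitted and without any one of 6 single samples (-0.84 to -0.57). COX4I2 is left out because it was listed at 0 in all 3 day 6 CD43+ samples.

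From day 12 to day 16 it moved by -0.83 for SDHA, -0.78 for ATP5A1, -0.73 for SDHAF3, -0.64 for SDHD, -0.55 for ATP5B, -0.49 for COX4I1, SDHC and UQCRC2 each, -0.47 for ATP5G1 and -0.39 for SDHB. All 4 structural subunits of complex II are in this group. The call of SDHAF3 was lost with a pseudocount of 10, median-of-ratios scaling, a replicate block, only the compared populations fitted, and without any one of 5 single samples. Of the moves given here, the alternatives were run only for ATP5E, COX8A, NDUFB3, NDUFA4L2 and NDUFA6-AS1 from day 6 to day 12 and for SDHA, ATP5A1 and SDHAF3 from day 12 to day 16.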

How the results depend on the processing

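Of the named genes' results, 123 in all, 1794 values under alternatives kept their direction and side of the threshold, 79 lost the call, 9 gained it and 2 changed sign. Quantile normalization was among the alternatives and left the counts of members called unchanged in every comparison. All samples already held the same sorted values, so its share of the kept values was set in advance. Both sign changes were of SDHC on day 16, main value -0.01, at 0.0302 without day 16 CD43- replicate 1 and 0.0457 without day 16 CD43+ replicate 2 (range with single samples left out, -0.046 to 0.0457). With a fold change above 2 required, members called were 9, 19, 22 and 13 for CD43+ against CD43- on days 6, 9, 12 and 16, 7 for day 4 against day 0, 10 and 7 for day 6 CD43+ and CD43- against day 4, 6 and 10 for CD43+ and CD43- cells on day 12 against day 6, 5 and 6 for day 16 against day 12, and 3 and 0 for the changes of the difference from day 6 to 12 and day 12 to 16. In that order, the shares of all genes tested were 27.1%, 41.6%, 45.4%, 45.4%, 28%, 29.8%, 21.5%, 40.5%, 26.2%, 21.4%, 24.1%, 31.1% and 9.86%. Above 4 the members were 2, 5, 4 and 3, then 3, 1, 2, 2, 4, 1, 1, 2 and 0, beside 12.5%, 21.5%, 26.2% and 25.8% of all genes, then 14.3%, 14.5%, 7.71%, 23%, 11.4%, 9.05%, 10.4%, 18.5% and 5.03%. With only the compared populations fitted they were 29 and 30 for CD43- cells (day 12 against day 6, day 16 against day 12) and 16 and 8 for the changes, with fewer samples to estimate the spread. With median-of-ratios scaling the last change gave 12, and the structural median was 0.27 on day 6 and 0.52 on day 9; the cause was not tested. Leaving out single samples gave 19 to 38 and 10 to 32 for the changes.

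With a replicate block, which the main fit did not have, members called were 63, 82, 79 and 64 for the sorting days. No named day 6 call changed with it. On other days, where it is likewise not known whether the numbers mark pairs, the block added COX7A1 on day 9 and COX4I1 on day 16. It lost SDHD on day 16 and SDHAF3 for the last change. Depth is unknown, so no counting error could be given, and values near 0 or at the highest value of 90700 limit any fold.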
